A study of Homo sapiens with 6 samples.

Results

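Enzymes that build sugar chains and glycosylphosphatidylinositol (GPI) anchors were followed in ME-1 cells, an established line from human acute myeloid leukaemia with inv(16), the inversion that creates the fusion protein CBFβ-SMMHC. The cells were kept for 6 h with 1 µM AI-10-49, an inhibitor of the interaction between that fusion protein and the transcription factor RUNX1, or with the solvent DMSO, in 3 independent experiments per treatment. Both groups are the same cell line, so the inversion is shared by the controls. Members were taken by symbol from the authors' deposited expression table: rows of a single symbol that begins with ALG, PIG and a letter, B3GALT, B3GNT, B4GALT, GALNT, MGAT, ST3GAL, ST6GAL, FUT, POMT, DPM, CHST, HS3ST, HS6ST, HS2ST or XYLT. This gave 58 of the 6339 rows, for 57 symbols, since B4GALT7 stands on 2 rows. No row began with POMT or HS2ST. Values are FPKM (fragments per kilobase of transcript, scaled to the mapped total of the library), so levels can be set side by side between genes.

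N-glycans are assembled on the lipid dolichol in the membrane of the endoplasmic reticulum, moved as a block to the nascent protein, and then trimmed and rebuilt in the Golgi, where branches, galactose, fucose and sialic acid are added. Mucin-type O-glycans start with a single N-acetylgalactosamine on serine or threonine, and glycosaminoglycans such as heparan and chondroitin sulfate start with xylose and a short linker. GPI anchors are lipid-linked glycans, made step by step in the endoplasmic reticulum, that tie many surface proteins of blood cells to the membrane.

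Most of these genes fell after 6 h with AI-10-49. Tested were the 54 members whose mean reached 1 FPKM in either group: 38 were lower, 15 were higher and 1, PIGP, did not pass (limma on log2(FPKM + 1), Benjamini-Hochberg adjusted p under 0.05 over all tested rows). The falls were led by B4GALT2, a galactosyltransferase, at 4.16-fold, and the largest rise on the log2 scale was that of ST6GALNAC3, a sialyltransferase of mucin-type glycans. Of all 6230 tested rows, 95.3% passed, 46.2% higher and 49.1% lower, so passing in itself says little, and 70.4% of the tested members were lower. The rows appear to have been selected on these same libraries by a rule that the sources used here do not give. The median log2 fold change was -0.48 over the tested members and -0.28 over all tested rows. With a minimum log2 fold change of 1, 8 members (14.8% of those tested) were lower, against 7.62% of all tested rows, and 1 member (1.85%), ST6GALNAC3, was higher, against 5.79%, with 13.4% of all tested rows past that size in either direction. ST6GALNAC3 reached 1 FPKM only with AI-10-49, so it had to differ to be tested. The mean of PIGZ, called lower, reached 1 FPKM only with DMSO, so the same holds for it. Lower RNA per cell and fewer cells expressing a gene cannot be told apart in these bulk libraries.

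**Figure D1:**
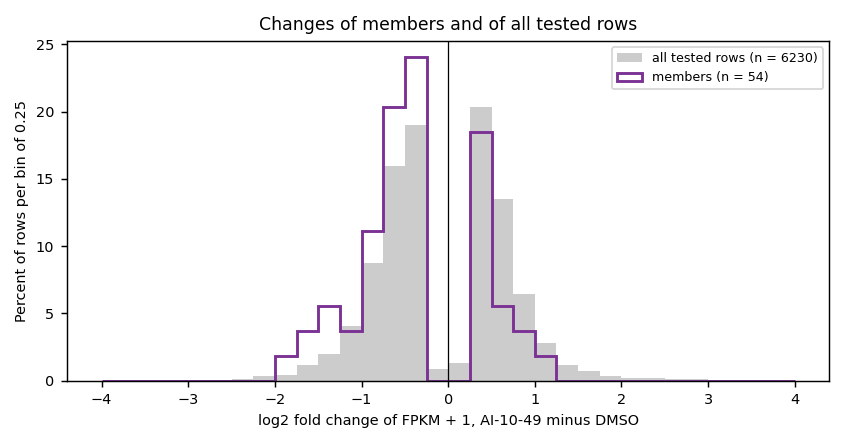
Percent of rows (vertical axis) per bin of log2 fold change of FPKM + 1, AI-10-49 minus DMSO (horizontal axis), for all 6230 tested rows (grey) and the 54 tested members (purple line). Few rows of the table lie near 0, and the members lie mostly to the left, with 38 lower and 15 higher.

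The 3 libraries of a group lay close together, with a median coefficient of variation over members of 6.16% for DMSO and 6.45% for AI-10-49. The groups did not overlap in 53 of the 54 tested members, PIGP being the exception, where 96.2% of all tested rows did not overlap. AI-10-49 replicate 2 stood apart at high FPKM. Its highest value over all 6339 rows was 159 FPKM, against 1843 and 1877 FPKM in AI-10-49 replicates 1 and 3. Means and fits of abundant genes include this library unless stated. In all 294 rows of the table with at least 100 FPKM in the mean of replicates 1 and 3, replicate 2 was the lowest of the 3. In the 7 members with at least 40 FPKM in that mean, replicate 2 read 67.8% to 88.5% of it (median 81.2%), and in the 46 members between 1 and 40 FPKM 73.7% to 132.5% (median 103.1%). Values without replicate 2 are given for all 7 of these members. Of 10 myeloid blast markers, 6 had a row (CD33, KIT, LYZ, CEBPA, ELANE and AZU1), and their summed level was 267.6 to 296.5 FPKM with DMSO and 118.6 to 142.5 FPKM with AI-10-49. B cell genes with a row (2 of 5, CD79A and CD79B) summed to 24.8 to 29.96 FPKM with DMSO and 8.72 to 10.6 FPKM with AI-10-49. T cell genes (2 of 4, CD3D and CD3E) summed to 32.6 to 34.3 and 16.9 to 17.2 FPKM, and the erythroid gene KLF1 (1 of 4) stood at 8.76 to 9.60 and 3.28 to 4.004 FPKM. Of 4 fibroblast markers 0 had a row, and they were not analysed here. All 11 of these marker genes were lower in the same fit, as most members were, and their part in the results was not tested.

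**Figure D2:**
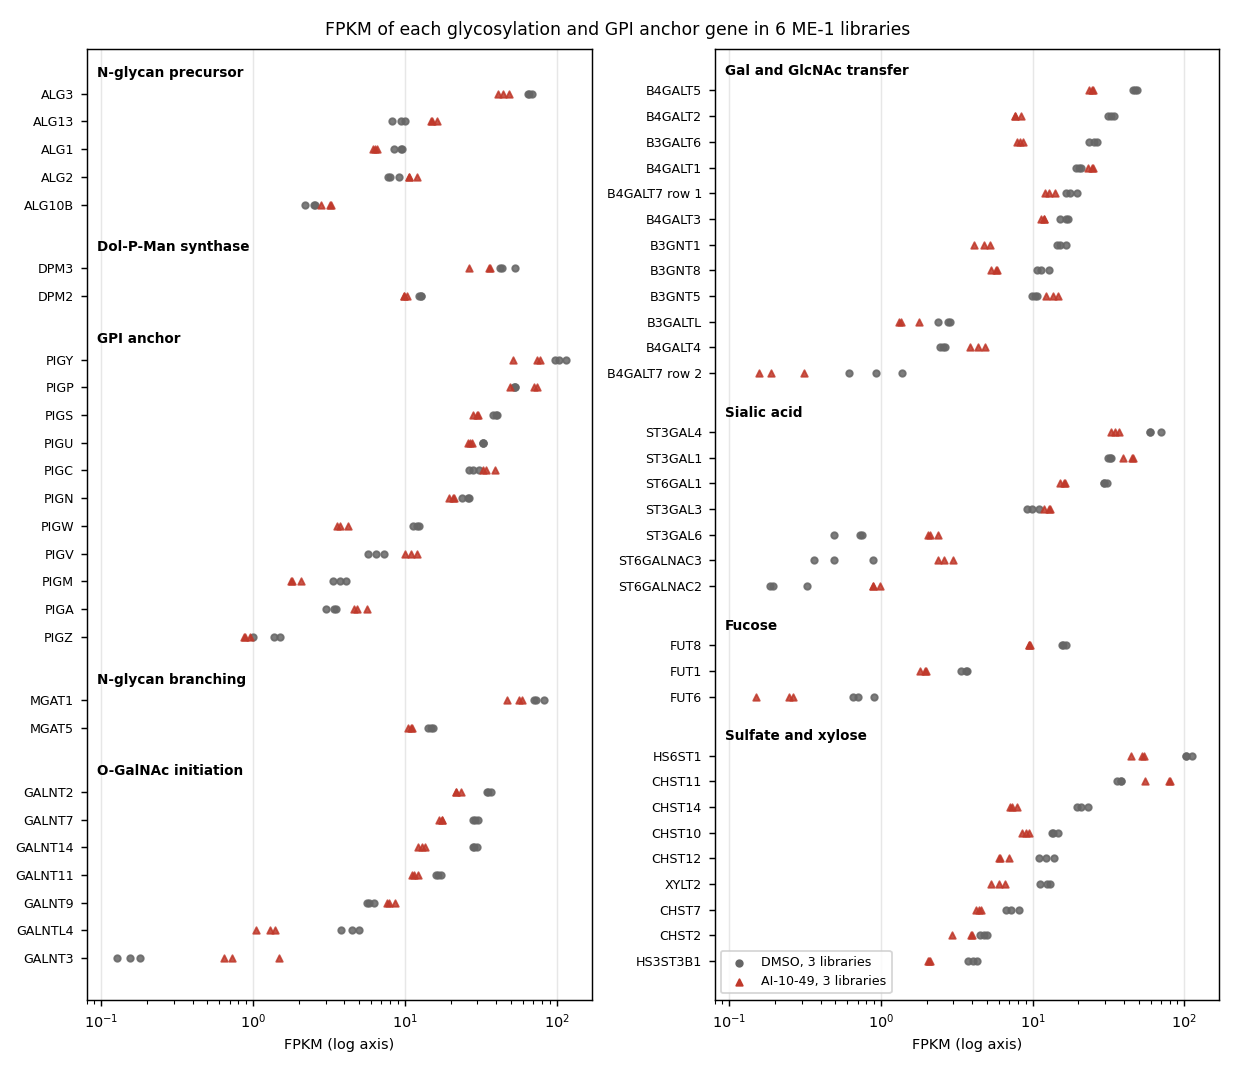
FPKM on a log axis (horizontal) of each of the 58 member rows (vertical, grouped by role) in the 3 DMSO libraries (grey circles) and the 3 AI-10-49 libraries (red triangles). PIGY and HS6ST1 had the highest levels with DMSO, near 106 and 105 FPKM, and PIGP is the tested member whose groups overlap.

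Galactosyltransferases and N-acetylglucosaminyltransferases, which extend chains in the Golgi, fell in 8 and rose in 3 of 11 tested rows. B4GALT2, which adds galactose to N-acetylglucosamine ends, read 31.5, 32.7 and 34.3 FPKM with DMSO and 7.59, 8.42 and 7.69 FPKM with AI-10-49. Every AI-10-49 library lay under 9 FPKM and every DMSO library above 31 FPKM. Its log2 fold change was -1.93 ± 0.065 (SE, limma adjusted p = 8.84e-11), and p was 0.1 in an exact two-sided permutation test over the 6 libraries, which is the floor of that test for 3 against 3. B4GALT5, which makes lactosylceramide, the base of most glycolipids, read 49.02, 45.8 and 46.9 FPKM with DMSO and 24.5, 23.7 and 25.01 FPKM with AI-10-49 (log2 fold change -0.93 ± 0.073, SE). B4GALT3 also fell, from 16.3 ± 0.955 to 11.7 ± 0.331 FPKM (SD, n = 3). The opposite direction was seen for B4GALT1, the main galactosyltransferase of N-glycans in many cells, and for B4GALT4. B4GALT1 read 20.04, 19.4 and 20.7 FPKM with DMSO and 24.7, 23.2 and 24.96 FPKM with AI-10-49, a small change of 0.26 ± 0.064 on the log2 scale (SE, adjusted p = 0.00181) with groups that did not overlap. B4GALT4 started low and read 2.46, 2.64 and 2.58 FPKM with DMSO and 3.88, 4.35 and 4.86 FPKM with AI-10-49 (log2 fold change 0.59).

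The shares of B4GALT2 and B4GALT1 within their family differed between treatments without overlap. Over the 7 B4GALT rows the summed level was 133.6 to 140.4 FPKM with DMSO and 85.6 to 86.0 FPKM with AI-10-49. B4GALT2 made up 22.5%, 24.5% and 24.6% of that sum with DMSO and 8.87%, 9.82% and 8.94% with AI-10-49. B4GALT1 made up 14.3%, 14.5% and 14.9% with DMSO and 28.9%, 27.0% and 29.0% with AI-10-49. B4GALT5 held the largest share with DMSO, 33.6% to 34.9%, and with AI-10-49 its 27.6% to 29.1% overlapped those of B4GALT1. These shares cover only family members that have a row in the table, and they restate the members' own values.

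**Figure D3:**
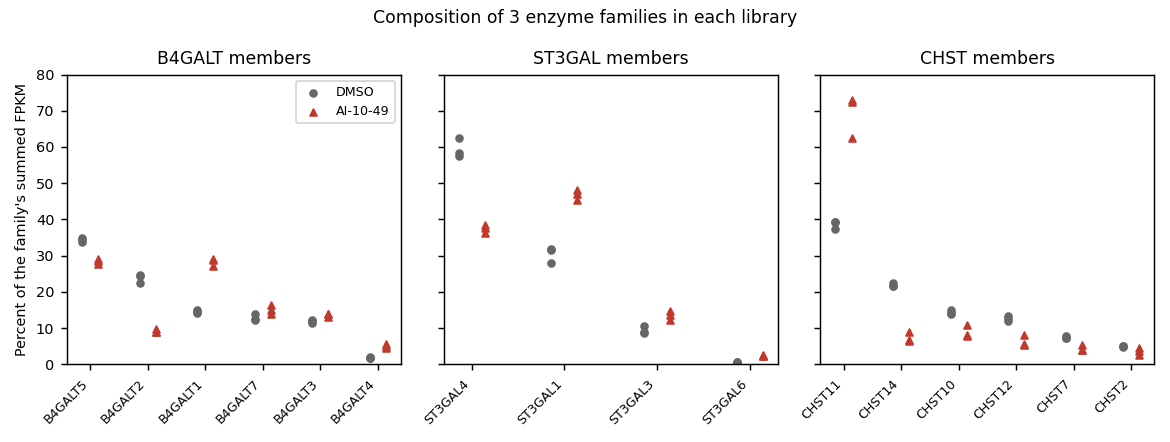
Percent of the summed FPKM of the family's rows (vertical axis) held by each B4GALT, ST3GAL and CHST member (horizontal axis) in each library, DMSO as grey circles and AI-10-49 as red triangles. B4GALT1 moved from 14.3-14.9% to 27.0-29.0%, ST3GAL4 from 57.4-62.5% to 36.2-38.3% and CHST11 from 37.3-39.4% to 62.5-73.1%.

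Among the related chain-extending enzymes, B3GALT6, which adds a galactose of the glycosaminoglycan linker, read 25.5, 23.4 and 26.6 FPKM with DMSO and 8.59, 8.23 and 7.87 FPKM with AI-10-49 (3.06-fold lower). Its log2 fold change was -1.50 ± 0.067 (SE, adjusted p = 9.21e-10). B3GNT1 read 15.2, 14.4 and 16.5 FPKM with DMSO and 4.11, 5.196 and 4.78 FPKM with AI-10-49 (log2 fold change -1.52 ± 0.083, SE). That symbol has been used for more than 1 gene, B4GAT1 and B3GNT2 in RefSeq, and the sources used here do not say which of them the row holds. B3GNT8, which extends N-glycans with polylactosamine, fell from 11.6 ± 1.04 to 5.62 ± 0.294 FPKM (SD over n = 3; log2 fold change -0.92), and B3GALTL, which adds glucose to O-fucose on thrombospondin repeats, from 2.66 ± 0.252 to 1.49 ± 0.252 FPKM. B3GNT5, which starts the lacto-series of glycolipids, rose from 10.3 ± 0.458 to 13.5 ± 1.17 FPKM (log2 fold change 0.35).

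The sequence upstream of 5 of these and other members is shown. They are among the largest falls (B4GALT2, B3GALT6, CHST14), the largest rise (ST6GALNAC3) and a family member that moved against B4GALT2 (B4GALT1). That of B4GALT4, which also rose, is not shown. Each run is the 250 bases before the first start listed in the RefSeq promoter table (GRCh38.p14), 5′ to 3′ in the direction of the gene, with CACGTG in capitals. The authors' files use hg19, and the positions here are those of GRCh38.p14.
B4GALT2 (chr1:43979687-43979936, plus strand): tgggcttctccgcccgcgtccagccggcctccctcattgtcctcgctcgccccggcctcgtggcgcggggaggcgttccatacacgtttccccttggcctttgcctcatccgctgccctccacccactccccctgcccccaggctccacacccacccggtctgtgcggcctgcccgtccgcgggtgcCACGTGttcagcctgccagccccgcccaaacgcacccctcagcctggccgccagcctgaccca
B3GALT6 (chr1:1231987-1232236, plus strand): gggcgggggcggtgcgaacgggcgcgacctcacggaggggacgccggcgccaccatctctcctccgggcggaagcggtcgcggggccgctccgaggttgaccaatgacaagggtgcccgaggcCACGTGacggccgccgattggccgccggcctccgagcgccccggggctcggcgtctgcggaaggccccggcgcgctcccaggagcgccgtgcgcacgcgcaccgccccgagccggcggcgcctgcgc
CHST14 (chr15:40470734-40470983, plus strand): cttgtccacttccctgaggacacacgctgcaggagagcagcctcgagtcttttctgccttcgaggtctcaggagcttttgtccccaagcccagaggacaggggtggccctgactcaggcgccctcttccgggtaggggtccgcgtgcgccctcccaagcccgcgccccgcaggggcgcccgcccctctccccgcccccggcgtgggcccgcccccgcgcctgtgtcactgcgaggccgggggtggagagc
B4GALT1 (chr9:33167337-33167586, minus strand): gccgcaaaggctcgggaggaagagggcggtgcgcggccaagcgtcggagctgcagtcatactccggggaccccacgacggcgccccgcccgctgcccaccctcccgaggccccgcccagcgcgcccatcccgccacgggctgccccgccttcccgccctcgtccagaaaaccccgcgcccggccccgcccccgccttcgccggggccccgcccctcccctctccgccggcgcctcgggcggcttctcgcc
ST6GALNAC3 (chr1:76074496-76074745, plus strand): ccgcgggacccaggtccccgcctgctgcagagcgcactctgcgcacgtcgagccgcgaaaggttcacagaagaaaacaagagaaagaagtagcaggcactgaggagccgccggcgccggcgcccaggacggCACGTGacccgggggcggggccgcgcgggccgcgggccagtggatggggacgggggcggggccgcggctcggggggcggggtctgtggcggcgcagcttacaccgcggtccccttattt
CACGTG, the E-box hexamer read by MYC and other basic helix-loop-helix factors, reads the same on both strands. It begins 63 bases before the start of B4GALT2 and 127 bases before that of B3GALT6, which fell, and 119 bases before that of ST6GALNAC3, which rose. Those letters are not in the windows printed for CHST14, which fell, and B4GALT1, which rose.

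Of the 57 member symbols, 51 matched an entry of the promoter table, and the window searched was 250 bases before to 50 bases after the first listed start. Several members have more than 1 listed start (2 for B4GALT2 and B4GALT1, 6 for MGAT1), and the later ones were not searched. Which start ME-1 cells use is not known from these data. CACGTG was found in 6 of the 51 (11.8%), in 5 of the 34 that fell (14.7%) and in 1 of the 14 that rose (7.14%). The same letters were in 7.43% of 27305 promoters, 1 per symbol, in 13.6% of those of table rows that fell and in 9.60% of those of rows that rose. The other members with it were PIGW (19 bases after the start), ALG1 (19 before) and ST3GAL4 (51 before), and B4GALT2 held another match 35 bases after the start. The letters TGATGNAA of the amino acid response element, on either strand, were in 2 members, FUT8 and FUT1 (3.92%), against 3.67% of all promoters. Table rows held TGATGNAA in 2.35% of those that rose and 1.2% of those that fell. TGTGGT, the core of the RUNX motif, on either strand, was in 1 member, B4GALT4 (1.96%), against 13.1% of all promoters, 9.35% of table rows that rose and 9.21% of those that fell. The endoplasmic reticulum stress element (ERSE, searched on either strand) was in none, against 0.0806%. No match of one motif overlapped a match of another in these members. A match describes the letters only.

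**Figure D4:**
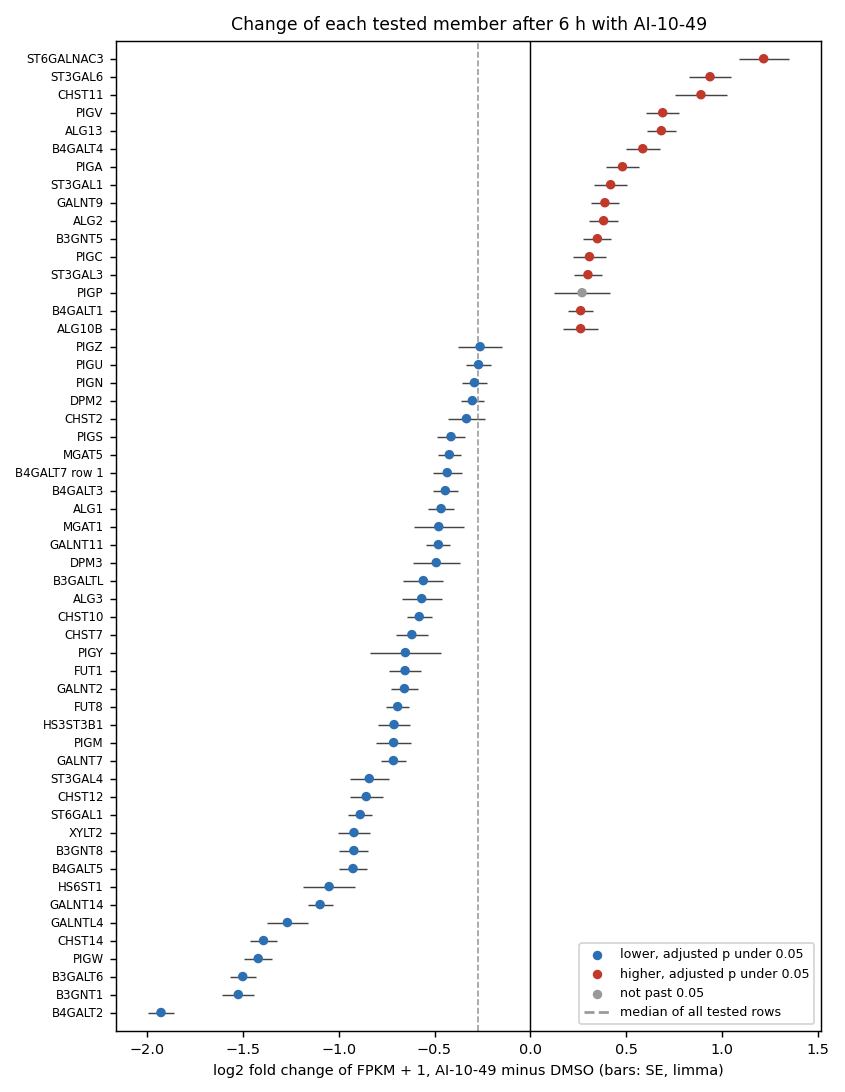
Log2 fold change of FPKM + 1, AI-10-49 minus DMSO (horizontal axis, bars are SE from limma), of the 54 tested members in order of size, with those called lower in blue, higher in red and PIGP, which did not pass, in grey. The dashed line marks the median of all tested rows, -0.28, and changes run from -1.93 in B4GALT2 to 1.22 in ST6GALNAC3.

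Among 6 tested sialyltransferases, which cap chains with sialic acid, 2 were lower and 4 higher, and 2 of the 4 (ST6GALNAC3 and ST3GAL6) were tested only because of their level with AI-10-49. The falls were in the abundant ST6GAL1, which caps N-glycans, and ST3GAL4. ST6GAL1 read 31.02, 29.6 and 29.5 FPKM with DMSO and 15.99, 16.2 and 15.1 FPKM with AI-10-49, and ST3GAL4 read 59.5, 59.6 and 70.1 FPKM with DMSO and 34.7, 32.6 and 36.9 FPKM with AI-10-49. For both genes each AI-10-49 library lay under 40 and over 15 FPKM, below all DMSO libraries, with log2 fold changes of -0.89 ± 0.063 and -0.84 ± 0.1 (SE). ST3GAL1, which caps the core of mucin-type glycans, rose, reading 32.7, 32.5 and 31.5 FPKM with DMSO and 46.1, 39.3 and 45.1 FPKM with AI-10-49 (log2 fold change 0.42 ± 0.084, SE, adjusted p = 0.000452), or 0.49 without AI-10-49 replicate 2. ST3GAL3 rose from 10.01 ± 0.932 to 12.5 ± 0.609 FPKM (SD over n = 3; log2 fold change 0.30). ST6GALNAC3 and ST3GAL6 stood under 1 FPKM in every DMSO library. ST6GALNAC3 read 0.887, 0.361 and 0.488 FPKM with DMSO and 2.97, 2.59 and 2.38 FPKM with AI-10-49 (4.57-fold higher), and ST3GAL6 read 0.491, 0.725 and 0.749 FPKM with DMSO and 2.104, 2.03 and 2.37 FPKM with AI-10-49 (3.31-fold higher). Their log2(FPKM + 1) changes, 1.22 ± 0.13 and 0.94 ± 0.11 (SE), understate these folds. With a pseudocount of 0.1 in place of 1 they were 2.09 and 1.602. These genes had to differ to be tested, and they are no support for a direction of the family. ST6GALNAC2 was not tested, since its means stayed under 1 FPKM, and it read 0.194, 0.185 and 0.323 FPKM with DMSO and 0.884, 0.989 and 0.888 FPKM with AI-10-49. Within the summed ST3GAL level of 102.0 to 112.2 FPKM with DMSO and 86.8 to 96.2 FPKM with AI-10-49, ST3GAL4 held 57.4%, 58.5% and 62.5% with DMSO and 36.2%, 37.5% and 38.3% with AI-10-49. ST3GAL1 held 31.5%, 31.8% and 28.1% with DMSO and 48.1%, 45.4% and 46.9% with AI-10-49, so that the gene with the larger share changed from ST3GAL4 to ST3GAL1 in every library.

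Fucosyltransferases fell in both tested members. FUT8, which adds the core fucose of N-glycans, read 15.7, 15.7 and 16.5 FPKM with DMSO and 9.501, 9.41 and 9.55 FPKM with AI-10-49 (log2 fold change -0.69 ± 0.06, SE, adjusted p = 2.94e-07). FUT1, which makes the H antigen, read 3.39, 3.65 and 3.698 FPKM with DMSO and 1.94, 1.99 and 1.795 FPKM with AI-10-49 (log2 fold change -0.65). FUT6 was not tested and read 0.658, 0.709 and 0.893 FPKM with DMSO and 0.247, 0.264 and 0.149 FPKM with AI-10-49. A row that names FUT4 together with PIWIL4 was left out by the rule, since its value cannot be given to either gene, and it read 37.5, 36.9 and 37.003 FPKM with DMSO and 22.02, 22.6 and 21.04 FPKM with AI-10-49. N-glycan branching was measured through 2 genes, both lower. MGAT1, which opens the way from high-mannose to complex N-glycans, read 73.1, 71.5 and 82.7 FPKM with DMSO and 59.04, 47.03 and 56.8 FPKM with AI-10-49 (log2 fold change -0.48 ± 0.13, SE), or -0.38 without AI-10-49 replicate 2 and -0.16 with quantile normalization. MGAT5, which adds the branch that carries much polylactosamine, read 15.3, 14.9 and 14.3 FPKM with DMSO and 10.9, 11.1 and 10.4 FPKM with AI-10-49 (log2 fold change -0.42 ± 0.062, SE). In MGAT1, replicate 2 was the lowest AI-10-49 library, and in MGAT5 it was the highest.

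The GALNT family, which attaches the first N-acetylgalactosamine of mucin-type O-glycans, fell in 5 and rose in 1 of 6 tested members. GALNTL4 read 3.78, 4.97 and 4.47 FPKM with DMSO and 1.29, 1.04 and 1.39 FPKM with AI-10-49 (3.55-fold lower, log2 fold change -1.27 ± 0.11, SE). GALNT14 read 28.2, 28.4 and 30.1 FPKM with DMSO and 13.7, 13.1 and 12.2 FPKM with AI-10-49 (log2 fold change -1.10 ± 0.066, SE, adjusted p = 1.09e-08). Both groups of GALNT14 spanned under 2 FPKM and lay more than 14 FPKM apart. GALNT7, which prefers substrates that already carry a sugar, read 30.3, 28.2 and 28.9 FPKM with DMSO and 16.9, 17.5 and 17.7 FPKM with AI-10-49, and GALNT2, the most abundant member of the family in the table, read 35.3, 34.98 and 37.1 FPKM with DMSO and 23.3, 21.9 and 21.8 FPKM with AI-10-49, with log2 fold changes of -0.71 and -0.66. GALNT11 fell from 16.6 ± 0.671 to 11.6 ± 0.468 FPKM (SD, n = 3). GALNT9 rose from 5.89 ± 0.368 to 8.03 ± 0.569 FPKM (log2 fold change 0.39). GALNT3 was not tested and read 0.178, 0.127 and 0.155 FPKM with DMSO and 0.645, 1.48 and 0.727 FPKM with AI-10-49, with AI-10-49 replicate 2 the highest. A row of 3 symbols that include GALNT4 was left out by the rule and read 15.3, 14.7 and 15.96 FPKM with DMSO and 17.6, 21.8 and 19.1 FPKM with AI-10-49. The summed GALNT level was 118.9 to 123.7 FPKM with DMSO and 73.8 to 74.9 FPKM with AI-10-49. The share of GALNT2 in it overlapped between groups, at 29.4% to 29.98% with DMSO and 29.2% to 31.1% with AI-10-49, and that of GALNT14 did not, at 23.5% to 24.3% and 16.6% to 18.2%.

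Sulfotransferases and xylosyltransferase, most of which start or decorate glycosaminoglycans, fell in 8 of 9 members, and CHST11 alone of the 9 rose. CHST11, a chondroitin sulfotransferase, read 37.9, 35.9 and 38.4 FPKM with DMSO and 78.7, 54.6 and 80.4 FPKM with AI-10-49. All AI-10-49 libraries lay above all DMSO libraries, with replicate 2 nearest to them. Its log2 fold change was 0.89 ± 0.14 (SE, adjusted p = 5.2e-05), or 1.07 without AI-10-49 replicate 2. CHST12, which catalyses the same sulfation of chondroitin, moved the other way and read 12.3, 10.9 and 13.8 FPKM with DMSO and 6.08, 7.01 and 5.97 FPKM with AI-10-49 (log2 fold change -0.86 ± 0.087, SE). CHST14, which sulfates dermatan sulfate, read 20.9, 19.6 and 23.01 FPKM with DMSO and 7.13, 7.86 and 7.33 FPKM with AI-10-49 (2.85-fold lower, log2 fold change -1.39 ± 0.071, SE, adjusted p = 2.94e-09). Summed over the 6 CHST rows the level was 96.6, 91.3 and 102.9 FPKM with DMSO and 108.6, 87.5 and 110.0 FPKM with AI-10-49. The sums overlapped although single genes did not, through AI-10-49 replicate 2. Its sum lay below all DMSO sums, and those of AI-10-49 replicates 1 and 3 lay above them. CHST11 held 39.2%, 39.4% and 37.3% of that sum with DMSO and 72.5%, 62.5% and 73.1% with AI-10-49. CHST7, another chondroitin sulfotransferase, fell from 7.31 ± 0.786 to 4.401 ± 0.195 FPKM, CHST10, which makes the HNK-1 epitope, from 13.9 ± 0.691 to 8.97 ± 0.413 FPKM, and CHST2 from 4.78 ± 0.243 to 3.61 ± 0.574 FPKM (SD, n = 3).

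On the heparan sulfate side, HS6ST1 was among the most abundant members and read 102, 102 and 112 FPKM with DMSO and 53.9, 44.5 and 52.7 FPKM with AI-10-49 (log2 fold change -1.05 ± 0.14, SE), or -0.97 without AI-10-49 replicate 2 and -0.68 with quantile normalization. HS3ST3B1 read 4.31, 4.07 and 3.77 FPKM with DMSO and 2.05, 2.08 and 2.11 FPKM with AI-10-49 (log2 fold change -0.71). Its sulfotransferase domain is nearly identical to that of HS3ST3A1, so reads may have been split between them. XYLT2, which adds the first xylose, read 11.2, 12.9 and 12.3 FPKM with DMSO and 5.97, 6.55 and 5.33 FPKM with AI-10-49 (log2 fold change -0.92 ± 0.081, SE, adjusted p = 3.5e-07). The first linker galactose is added by B4GALT7. Its tested row read 19.4, 16.5 and 17.6 FPKM with DMSO and 12.9, 13.95 and 11.999 FPKM with AI-10-49 (log2 fold change -0.43 ± 0.076, SE), and a second row of the same symbol, with means under 1 FPKM, read 0.924, 1.38 and 0.619 FPKM with DMSO and 0.156, 0.312 and 0.188 FPKM with AI-10-49 and was not tested. The sources used here do not say how these rows differ. In all 3 linker enzymes that are members, XYLT2, B4GALT7 (tested row) and B3GALT6, every AI-10-49 library lay below every DMSO library, in a table where 96.2% of tested rows did not overlap and 49.1% were lower. The rest of the list of glycosaminoglycan assembly genes had 10 tested rows of 25 genes, 7 lower and 3 higher, of which NDST3 was tested only because of its level with AI-10-49. NDST1, which begins heparan sulfation, fell from 17.2 ± 0.363 to 7.38 ± 0.33002 FPKM (log2 fold change -1.12), and FAM20B, the kinase of the linker xylose, from 15.8 ± 0.807 to 6.79 ± 0.708 FPKM (-1.11). B3GAT3, which closes the linker with glucuronic acid and was named after its values were seen, changed by -0.66. CSGALNACT2, which commits a chain to chondroitin, rose from 19.9 ± 1.41 to 46.8 ± 5.76 FPKM (SD over n = 3; log2 fold change 1.19).

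Genes that build the lipid-linked precursor of N-glycans split, with 3 of 5 higher and 2 lower. ALG13, a subunit of the enzyme that adds the second N-acetylglucosamine, read 9.46, 9.95 and 8.21 FPKM with DMSO and 14.8, 16.3 and 15.02 FPKM with AI-10-49 (log2 fold change 0.68 ± 0.075, SE). ALG2, a mannosyltransferase on the cytosolic face, read 7.99, 9.12 and 7.799 FPKM with DMSO and 10.7, 11.98 and 10.7 FPKM with AI-10-49 (log2 fold change 0.38 ± 0.075, SE). ALG1, which adds the first mannose, lies between them in the pathway and fell, reading 9.47, 8.54 and 9.54 FPKM with DMSO and 6.17, 6.53 and 6.39 FPKM with AI-10-49 (log2 fold change -0.47 ± 0.069, SE). ALG3, the first mannosyltransferase on the lumenal face and the most abundant ALG gene in the table, read 65.2, 65.95 and 68.6 FPKM with DMSO and 48.3, 41.1 and 44.6 FPKM with AI-10-49 (log2 fold change -0.57 ± 0.1, SE, adjusted p = 0.000229), or -0.51 without AI-10-49 replicate 2 and -0.30 with quantile normalization. ALG10B, which adds the last glucose, rose from 2.42 ± 0.208 to 3.104 ± 0.251 FPKM (log2 fold change 0.26 ± 0.091, SE). It has a near-identical paralog, ALG10, so its value is uncertain, and its call was lost without DMSO replicate 3 or AI-10-49 replicate 3 (log2 fold change 0.21 and 0.23). The 2 measured subunits of the synthase of dolichol-phosphate-mannose, the mannose donor of lumenal steps, both fell. DPM3 read 42.4, 43.7 and 53.2 FPKM with DMSO and 35.9, 26.6 and 36.2 FPKM with AI-10-49, with AI-10-49 replicate 2 lowest (log2 fold change -0.49 ± 0.12, SE, or -0.35 without that library, and -0.30 when quantile normalization was added to that). DPM2 read 12.8, 12.8 and 12.4 FPKM with DMSO and 10.4, 9.94 and 9.93 FPKM with AI-10-49 (log2 fold change -0.30 ± 0.06, SE).

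Oligosaccharyltransferase genes, whose complex moves the finished glycan to protein, had 8 rows of 12 on the list, with 4 lower and 4 that did not pass. Their levels with DMSO ran from 94.5 FPKM in the catalytic subunit STT3B to 296 FPKM in RPN2, where AI-10-49 replicate 2 reads low. Without that library all 8 were lower, and the log2 fold change of RPN2 was -0.96 in place of -1.30, that of RPN1 -0.61 in place of -0.86 and that of STT3A -0.42 in place of -0.61. With quantile normalization of all libraries these values were -0.64, -0.31 and -0.15, and that of STT3B was -0.15 in place of -0.54. RPN2 lost its call when any 1 DMSO library was left out (highest limma adjusted p 0.0751), and RPN1 without DMSO replicate 3 (0.0567). RPN2 read 297, 285 and 305 FPKM with DMSO and 153, 74.5 and 149.8 FPKM with AI-10-49. The direction of KRTCAP2 and OSTC, which did not pass, turned under quantile normalization settings. Of 10 glucosidases, mannosidases and related genes of N-glycan processing, 6 were lower and 4 higher. MOGS, which removes the first glucose, changed by -0.83, MAN1A1, a Golgi mannosidase, by -0.65, and NGLY1, which strips N-glycans from misfolded proteins, by 0.53. Of 3 dolichol supply genes, DOLPP1 (0.52) and SRD5A3 (0.34) rose and NUS1 (-0.44), a subunit of the dolichol-making prenyltransferase, fell.

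Among the 11 GPI anchor genes 7 were lower, 3 were higher and 1 did not pass. Of the lower ones, PIGZ was tested only because of its level with DMSO. PIGW, which acylates the inositol ring, changed most. It read 12.1, 12.4 and 11.3 FPKM with DMSO and 4.19, 3.59 and 3.72 FPKM with AI-10-49 (3.11-fold lower), and its log2 fold change was -1.42 ± 0.074 (SE, adjusted p = 3.25e-09). The next largest were the mannosyltransferases that act in sequence, PIGM for the first mannose and PIGV for the second, and they moved in opposite directions. PIGM read 3.71, 4.08 and 3.36 FPKM with DMSO and 1.796, 2.06 and 1.76 FPKM with AI-10-49 (log2 fold change -0.71 ± 0.093, SE), and PIGV read 6.41, 5.71 and 7.25 FPKM with DMSO and 10.97, 11.998 and 10.1 FPKM with AI-10-49 (log2 fold change 0.69 ± 0.087, SE). The first step, transfer of N-acetylglucosamine to phosphatidylinositol, is carried out by a complex, and 4 PIG genes of that complex had rows. PIGA, the catalytic subunit, rose, reading 3.54, 3.398 and 3.03 FPKM with DMSO and 4.84, 5.65 and 4.64 FPKM with AI-10-49 (log2 fold change 0.48 ± 0.088, SE), and PIGC rose from 28.4 ± 2.06 to 35.5 ± 3.63 FPKM (log2 fold change 0.31 ± 0.088, SE). PIGP read 52.5, 53.3 and 53.3 FPKM with DMSO and 74.5, 49.5 and 71.5 FPKM with AI-10-49. Replicates 1 and 3 of AI-10-49 lay above the DMSO libraries and replicate 2 below them. Its log2 fold change was 0.27 ± 0.15 (SE, adjusted p = 0.091) with all libraries and 0.45 (limma adjusted p = 1.59e-05) without AI-10-49 replicate 2, and 0.16 without AI-10-49 replicate 1. PIGP also passed with the replicate number as a block, and with quantile normalization (0.55). PIGY read 103, 98.3 and 116 FPKM with DMSO and 74.3, 51.6 and 77.7 FPKM with AI-10-49 (log2 fold change -0.65 ± 0.18, SE, or -0.47 without AI-10-49 replicate 2 and -0.24 with quantile normalization). PIGY is made from a transcript shared with PYURF, and a value per gene does not tell their products apart.

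Of the members that act later, PIGN, PIGS, PIGU and PIGZ were lower. PIGN, which adds ethanolamine phosphate to the first mannose, fell from 25.4 ± 1.32 to 20.5 ± 0.787 FPKM (SD over n = 3; log2 fold change -0.29). PIGS and PIGU, subunits of the transamidase that joins anchor to protein, fell from 39.5 ± 1.23 to 29.4 ± 1.24 FPKM and from 32.7 ± 0.0994 to 26.9 ± 0.806 FPKM, with log2 fold changes of -0.41 and -0.27. GPAA1, another transamidase subunit, changed by -0.56, or -0.29 with quantile normalization. PIGZ, which adds a further mannose, read 1.37, 1.504 and 1.002 FPKM with DMSO and 0.948, 0.868 and 0.8902 FPKM with AI-10-49, and its call (log2 fold change -0.26 ± 0.12, SE, adjusted p = 0.0445) was lost when any single library other than DMSO replicate 3 was left out, with a highest adjusted p of 0.175 over its alternatives. With a pseudocount of 0.1 its log2 fold change was -0.46. The mean of PIGZ reached 1 FPKM only with DMSO, so it had to differ to be tested. The remodelling genes MPPE1 (0.52) and PGAP1 (0.51), which act after the anchor is attached, rose. Of 22 listed GPI-anchored surface proteins of blood cells, 9 had a tested row, 4 higher, 4 lower and 1, PRNP, that did not pass. Without AI-10-49 replicate 2 PRNP rose by 0.51 (limma adjusted p = 1.85e-05), which made 5 higher and 4 lower. Its log2 fold change was 0.30 with all libraries, 0.66 with quantile normalization and 0.19 without AI-10-49 replicate 3. Among the lower, CEACAM6 reached a mean of 1 FPKM only with DMSO, so it had to differ to be tested. The lymphocyte antigen gene CD52 changed by -1.33, LY6E by -1.05 and BST2, the tetherin gene, by -0.82, or -0.87, -0.35 and -0.48 with quantile normalization. The 4 that rose with all libraries were PLAUR, the urokinase receptor gene (0.79), CD58 (0.56), CD109 (0.55) and CD55, a complement regulator (0.37). These 4, PRNP and CEACAM6 were named after their values were seen. LY6E lost its call when any 1 DMSO library was left out (highest limma adjusted p 0.102), and changed by -0.79 without AI-10-49 replicate 2.

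**Figure D5:**
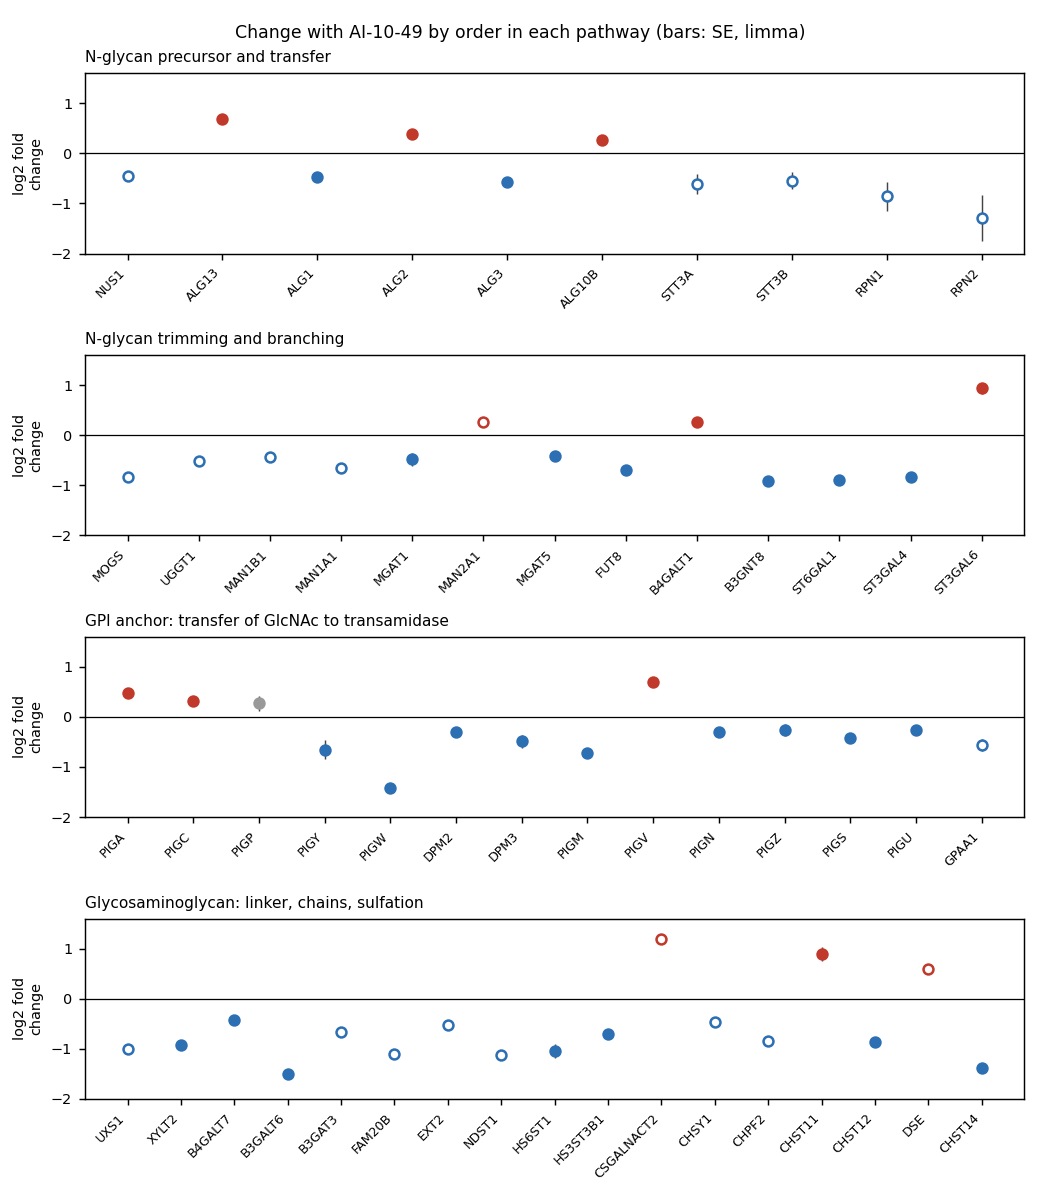
Log2 fold change of FPKM + 1, AI-10-49 minus DMSO (vertical axis, bars are SE from limma), of genes placed by order in 4 pathways (horizontal axis), members as filled and other pathway genes as open circles, lower in blue, higher in red and not past the threshold in grey. Genes were drawn for their place in the pathway, and not every gene of a step is shown. Of the oligosaccharyltransferase genes, OST4, DAD1, KRTCAP2 and OSTC, which did not pass, were left out. The linker enzymes XYLT2, B4GALT7 and B3GALT6 all lie below 0, while PIGM and PIGV, and ALG1 and ALG2, lie on opposite sides.

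Among genes that supply sugars, 9 of 11 tested genes of sugar nucleotide synthesis were lower, 1 was higher and 1 did not pass. The higher gene, UGP2, which makes UDP-glucose, had groups that overlapped and lost its call in 4 of the fits without 1 library (limma adjusted p 0.0508 to 0.0802). The overlap lay in AI-10-49 replicate 2, at 49.05 FPKM against 68.6 and 71.1 FPKM in replicates 1 and 3. Without that library the log2 fold change of UGP2 was 0.54 (limma adjusted p = 1.005e-05) in place of 0.37. With quantile normalization of all libraries it was 0.63. TSTA3, of GDP-fucose synthesis, changed by -0.34 and lost its call without DMSO replicate 3 (-0.30) and with quantile normalization (-0.09). GMDS, which did not pass, changed by 0.28, or 0.46 without AI-10-49 replicate 2 (limma adjusted p = 4.85e-05). In that fit 2 genes of the list were higher and 9 lower. The change of GMDS was 0.42 with quantile normalization and 0.18 without AI-10-49 replicate 1. UGP2, TSTA3 and GMDS were named after their values were seen. NANP, of sialic acid synthesis, fell from 9.77 ± 0.214 to 4.01 ± 0.2901 FPKM (log2 fold change -1.11), UXS1, which makes the xylose donor used by XYLT2, from 40.998 ± 0.997 to 19.9 ± 0.122 FPKM (-1.005), and UAP1, which makes UDP-N-acetylglucosamine, from 22.6 ± 1.24 to 11.9 ± 0.284 FPKM (-0.87). Of 7 transporters that carry such donors into the Golgi and endoplasmic reticulum, 4 were lower and 3 higher. SLC35B2 and SLC35B3, which both carry the sulfate donor, changed by -0.86 and 0.87, and SLC35A4 by -0.71. All 3 measured genes of the list named for mucin core and branching fell. That list is broader than its name, so this is no account of core and branching enzymes. ST8SIA6, a sialyltransferase, read 6.64, 9.31 and 6.04 FPKM with DMSO and 0.981, 0.999 and 0.803 FPKM with AI-10-49 (log2 fold change -2.09 ± 0.13, SE), B3GALNT1 changed by -1.005 and C1GALT1C1, the chaperone of the core enzyme, by -0.70. ST8SIA6 reached a mean of 1 FPKM only with DMSO, so it had to differ to be tested. In the O-mannose list POMGNT1 fell (log2 fold change -0.92). Of 4 genes of O-GlcNAc, O-fucose and O-glucose, 3 were lower, among them MFNG (-0.82, or -0.29 with quantile normalization) and POFUT1 (-0.47), and MGEA5, which removes O-GlcNAc from proteins of the nucleus and cytosol, rose from 27.4 ± 0.918 to 56.6 ± 8.51 FPKM (log2 fold change 1.012). Over all these lists, 43 of 70 tested genes (61.4%) were lower, 21 (30%) higher and 6 did not pass, with a median log2 fold change of -0.46, beside 49.1% lower, 46.2% higher and a median of -0.28 over all tested rows.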

How the data were processed

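RNA of 6 ME-1 libraries, 3 with DMSO and 3 with AI-10-49, was sequenced as 90 bp paired-end reads in independent experiments, per the design text of the series. Tools and build, per the submitters' processing notes and with no role stated, were Bowtie2 (2.1.0), Cufflinks (2.2.0), Cuffdiff and hg19. The authors' deposited table holds FPKM, 1 column per library, and the sources used here do not state strand use. The 58 member rows were picked by symbol prefix. The members, the pathway lists and the rule for named genes (up to 4 members per role with the largest change, the most abundant member, and up to 3 genes per list) were chosen with earlier results of these data known. FPKM are not counts, and ratios of low values between libraries sat no closer to ratios of small whole numbers than displaced ones, so depth is unknown.

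The scale of the fit was log2(FPKM + 1). limma 3.58.1 (R 4.3.3, mean-variance trend, two-sided) was run on the 6230 rows whose mean reached 1 FPKM in either group, with Benjamini-Hochberg adjustment and a threshold of 0.05. This scale understates the change of low genes. The procedure was tested on simulated data. Each library was left out in turn. Other alternatives were a replicate block, median or quantile scaling, a pseudocount of 0.1 or 0.5, the low-value filter dropped or raised to 5 FPKM, a fit with no trend, a 0.01 threshold and a minimum log2 fold change of 1. Quantile normalization without AI-10-49 replicate 2 was chosen after seeing the data. Motifs were searched with Python 3.11.15 and plots made with Matplotlib 3.10.9.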

Additional observations from a re-analysis of the deposited data

How the results depend on the processing

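A minimum log2 fold change of 1 left 836 table rows, 9 members (1 higher, 8 lower) and 11 other pathway genes, fewer by construction. Under every other setting the number of members past the threshold stayed between 42 (filter at 5 FPKM, 43 tested) and 57 (no filter, 58 tested). Leaving out single libraries gave 52 to 53 members, 14 to 16 higher and 37 to 39 lower, 60 to 70 other pathway genes and 5730 to 6067 table rows. Over the refits (other thresholds aside), 7 of 799 values of the 54 members lost the call (PIGZ and ALG10B), 4 gained it (PIGP) and 0 reversed. Of 1045 values of the 70 other pathway genes, 13 lost it (UGP2, RPN2, LY6E, TSTA3 and RPN1), 17 gained it and 3 reversed. KRTCAP2 turned to 0.0024 with quantile normalization and to 0.045 when AI-10-49 replicate 2 was also left out, where OSTC turned to 0.0089. With quantile normalization the median over all tested rows was -0.06 in place of -0.28, and over members -0.44 in place of -0.48, on the log2 scale, and abundant members that fell, such as MGAT1 and PIGY, came out nearer to 0. With the replicate number as a block, 54 members and 6015 table rows passed. Deviations of same-numbered libraries correlated at -0.15, 0.147 and 0.247 across genes. AI-10-49 replicates 2 and 3 correlated best with the DMSO library of the same number, and replicate 1 with DMSO replicate 3 (0.205). Pairing was thus not settled, and the numbers were not treated as pairs in the main fit. With no depth in the files, only the replicate spread limits low values.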

Other observations

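By level in DMSO, the members divided as follows, as a description without a test. Of 22 tested members with a DMSO mean of at least 20 FPKM, 17 were lower, 4 higher (CHST11, ST3GAL1, PIGC and B4GALT1) and 1 did not pass, with a median log2 fold change of -0.61. Of 20 members between 5 and 20 FPKM, 14 were lower and 6 higher, with a median of -0.45. Of 12 members under 5 FPKM, 7 were lower and 5 higher, with a median of -0.30, and 2 of these 12 passed the filter only through the AI-10-49 group. PIGZ, also among the 12, passed it only through the DMSO group. The log2(FPKM + 1) scale shrinks changes at low levels, which bears on these medians directly, and these classes were chosen after the values were seen. AI-10-49 replicate 2 read low at high FPKM, which bears on the top class. The table as a whole was not divided in this way, so these counts cannot be read as a trait of the members.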
